A study of Homo sapiens with 8 samples.

Results

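Small nucleolar RNA (snoRNA) and small Cajal body RNA (scaRNA) genes were followed in the human neuroblastoma line BE(2)-M17, an established line. The genes were selected on their mean level over all 8 libraries, at least 0.5 FPKM, among symbols that start with SNORD, SNORA or SCARNA and a digit. FPKM stands for fragments per kilobase of transcript and per mapped total, a length-corrected relative level. This left 26 of 400 such symbols, in a table of 26372 symbols. They were 6 of 269 SNORD genes (2.23%), 9 of 107 SNORA genes (8.41%) and 11 of 24 SCARNA genes (45.8%). The study set 4 libraries of untreated M17 cells against 4 libraries of M17 cells kept for 24 h with 10 ng/ml of interferon-γ (IFN-γ), a cytokine that natural killer and T cells release. Each library came from 1 µg of total RNA isolated with TRIzol and depleted of ribosomal RNA, and was read as pairs of 150 nt on a HiSeq. All 8 libraries are labelled as M17, although the growth protocol also covers the SH-SY5Y line. Whether replicates are separate cultures is not in the labels, so p-values cover only the spread between libraries, possibly a technical one.

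snoRNAs are stable nuclear RNAs that work inside protein complexes. C/D box snoRNAs (SNORD) bind FBL, NOP56, NOP58 and SNU13 and guide the methylation of ribose in ribosomal RNA, and H/ACA box snoRNAs (SNORA) bind DKC1, GAR1, NHP2 and NOP10 and guide the conversion of uridine to pseudouridine. scaRNAs carry box C/D domains, box H/ACA domains or both, and guide the same changes on the spliceosomal RNAs in Cajal bodies. U3, encoded by the SNORD3 genes, is a C/D box RNA that directs cleavage of the ribosomal RNA precursor and not its modification, and the H/ACA RNAs SNORA73A and SNORA73B also act in precursor processing. Most human snoRNAs are cut out of introns of a host gene, while U3 and SCARNA2 are transcribed from promoters of their own.

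5 of the 6 C/D box genes are copies of U3 on chromosome 17, and their sequences are shown because the results turn on values that a few bases divide between copies. They come from GENCODE release 29 transcripts on GRCh38, are written 5′ to 3′, and carry the bases that differ between copies in capitals. SNORD3A lies at chr17:19188016-19188232 on the plus strand, SNORD3B-1 at chr17:19061912-19062128 on the plus strand, SNORD3B-2 at chr17:19063920-19064136 on the minus strand, SNORD3C at chr17:19190029-19190245 on the minus strand and SNORD3D at chr17:19112420-19112636 on the minus strand. SNORD3B-2 has the same 217 bases as SNORD3B-1.
SNORD3A: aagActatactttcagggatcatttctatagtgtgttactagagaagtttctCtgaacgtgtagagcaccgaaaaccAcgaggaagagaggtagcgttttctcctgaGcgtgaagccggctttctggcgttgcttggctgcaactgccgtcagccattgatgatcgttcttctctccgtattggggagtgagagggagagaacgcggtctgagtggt
SNORD3B-1: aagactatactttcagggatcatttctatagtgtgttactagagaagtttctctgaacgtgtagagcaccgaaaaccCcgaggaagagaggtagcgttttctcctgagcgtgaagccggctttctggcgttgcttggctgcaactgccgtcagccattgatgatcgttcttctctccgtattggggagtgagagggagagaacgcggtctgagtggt
SNORD3C: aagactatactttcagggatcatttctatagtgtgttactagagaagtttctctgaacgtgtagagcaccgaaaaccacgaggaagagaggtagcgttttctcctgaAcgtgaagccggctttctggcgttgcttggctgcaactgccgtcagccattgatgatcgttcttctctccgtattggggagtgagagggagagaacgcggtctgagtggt
SNORD3D: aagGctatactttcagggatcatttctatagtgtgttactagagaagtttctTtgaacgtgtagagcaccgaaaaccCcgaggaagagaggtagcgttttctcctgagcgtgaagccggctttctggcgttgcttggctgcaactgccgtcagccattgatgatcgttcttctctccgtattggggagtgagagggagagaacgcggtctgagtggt
Counted from 1 at the 5′ end and with the base of SNORD3A first, SNORD3B-1 and SNORD3B-2 differ from SNORD3A by A78C, SNORD3C by G108A and SNORD3D by A4G, C53T and A78C. The copies are 98.6% to 99.5% identical to SNORD3A over 217 bases. A fragment that misses these positions fits more than 1 copy, and how such fragments were counted is not given in the sources used here. Values of single U3 copies are therefore uncertain.

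4 more sequences show the box elements that set the classes apart. SNORD17, the C/D box gene outside the U3 group, lies inside SNX5 (chr20:17962710-17962946, minus strand), and its TGATGA (part of the C box) and last CTGA (the D box) are in capitals. SCARNA9 lies inside CEP295 on the plus strand and is 353 bases long, of which the first 300 are shown (chr11:93721513-93721812), with both of its TGATGA copies in capitals. SNORA73A (chr1:28507366-28507571) and SNORA73B (chr1:28508559-28508762), both on the plus strand inside RCC1 and SNHG3, have the ACA of their 3′ end in capitals.
SNORD17: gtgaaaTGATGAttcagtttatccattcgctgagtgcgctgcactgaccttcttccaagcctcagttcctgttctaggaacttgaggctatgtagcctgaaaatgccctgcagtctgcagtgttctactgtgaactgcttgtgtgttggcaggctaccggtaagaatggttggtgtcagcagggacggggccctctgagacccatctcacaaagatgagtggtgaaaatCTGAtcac
SCARNA9: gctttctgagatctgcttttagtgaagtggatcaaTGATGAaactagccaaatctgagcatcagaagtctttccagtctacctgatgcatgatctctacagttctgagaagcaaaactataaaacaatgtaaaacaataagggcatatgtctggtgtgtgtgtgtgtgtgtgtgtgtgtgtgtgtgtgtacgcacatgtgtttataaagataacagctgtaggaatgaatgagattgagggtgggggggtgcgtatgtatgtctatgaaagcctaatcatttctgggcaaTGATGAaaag
SNORA73A: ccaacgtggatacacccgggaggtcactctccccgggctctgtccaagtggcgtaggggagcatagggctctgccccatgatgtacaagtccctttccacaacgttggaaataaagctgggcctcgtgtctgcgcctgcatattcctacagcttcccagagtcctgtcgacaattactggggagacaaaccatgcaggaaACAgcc
SNORA73B: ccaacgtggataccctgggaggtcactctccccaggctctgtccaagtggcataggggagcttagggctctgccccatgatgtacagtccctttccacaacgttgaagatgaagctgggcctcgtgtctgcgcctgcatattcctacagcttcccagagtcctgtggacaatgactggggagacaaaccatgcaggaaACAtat
On the transcribed strand, TGATGA was found in 6 of 6 SNORD genes, 0 of 9 SNORA genes and 8 of 10 SCARNA genes with a sequence. It starts at base 158 in the U3 copies, at base 7 in SNORD17, SCARNA5, SCARNA6, SCARNA7 and SCARNA10, at base 6 in SCARNA12, at base 158 in SCARNA16, at base 350 in SCARNA2, and at bases 36 and 291 in SCARNA9. For comparison, 6.48% of protein-coding transcripts hold TGATGA in their first 217 bases, 7.29% in the first 237 and 12.4% in the first 353. The end ACANNN was found in 0 of 6 SNORD, 5 of 9 SNORA and 2 of 10 SCARNA genes, and in 2.40% of protein-coding transcripts. No sequence is shown for SCARNA9L.

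MYCN and HAND2, which are high in this kind of line, were high in these cells. The summed level of 15 sympathoadrenal and neuroblastoma genes was 3848 to 3927 FPKM in untreated and 3857 to 4176 FPKM in IFN-γ libraries, with MYCN at 2003 ± 26.1 and HAND2 at 307 ± 2.62 FPKM untreated (SD, n = 4). 12 blood and immune markers summed to 1.59 to 2.37 FPKM untreated and 1.26 to 2.09 FPKM with IFN-γ, with 6 of the 12 at 0 in every library. 16 fibroblast, endothelial, glial and epithelial markers summed to 161 to 172 and 166 to 224 FPKM, mostly DCN (140 ± 4.40 and 143 ± 22.3 FPKM), and of these LUM was called higher and COL1A1 lower with IFN-γ. The part of these genes in the results was not tested. Correlations of log2 values over all tested genes were 0.985 to 0.989 within the untreated group, 0.983 to 0.988 within the IFN-γ group and 0.930 to 0.938 between them. Relative depth, estimated from the steps of low values, was lowest in IFN-γ replicate 2 (0.859) and highest in IFN-γ replicate 4 (1.252). Untreated replicate 3 and IFN-γ replicate 4 stood apart for the genes described here.

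Which snoRNA genes had a value followed their annotated length. The other 374 symbols were all listed at exactly 0 in all 8 libraries, and no symbol fell between 0 and the threshold. The lowest means that passed were 5.73 FPKM for SNORA58, 10.1 FPKM for SNORA74B and 10.9 FPKM for SNORA81. Of the 392 symbols with a RefSeq length, 0 of 241 of at most 100 nt had a value, nor did any of the 42 above 100 and up to 130 nt or of the 81 above 130 and up to 150 nt. In contrast, 2 of 4 genes above 150 and up to 180 nt and 24 of 24 longer genes had one. The genes with a value had a median length of 226.5 nt (154 to 421 nt), against 85.5 nt (33 to 166 nt) for those at 0.

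**Figure D1:**
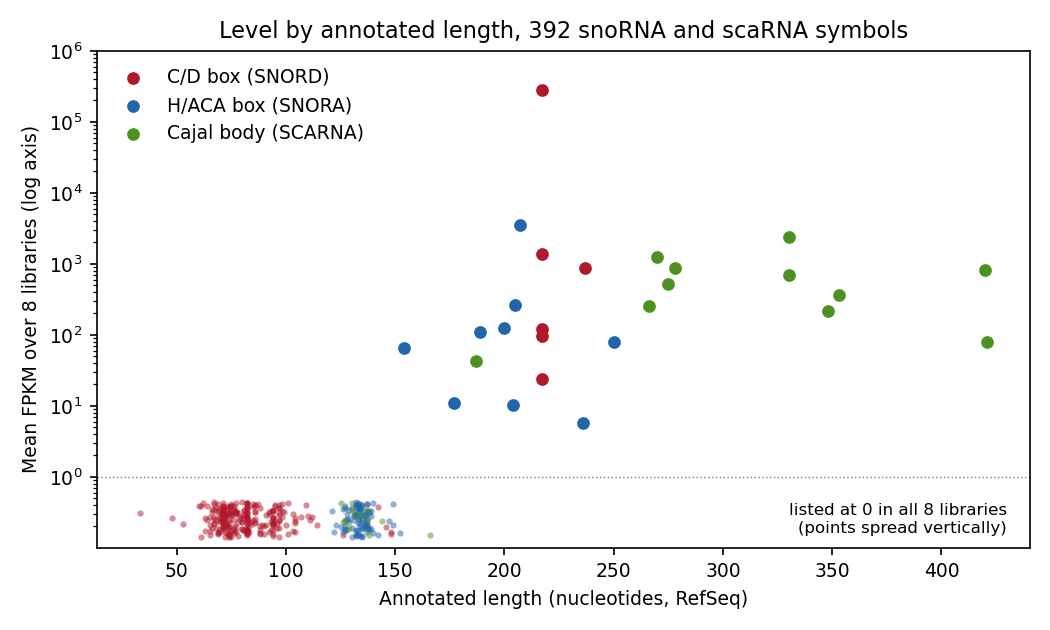
Each point is 1 of 392 snoRNA or scaRNA symbols, with its RefSeq length in nucleotides on the x axis and its mean FPKM over 8 libraries on a log y axis. Points under the dotted line are listed at 0 in all 8 libraries and are spread vertically only to be seen. All 24 genes above 180 nt have a value and all genes up to 150 nt are at 0.

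The classes differ in length, and the share with a value moved with it. C/D box genes at 0 had a median of 79.5 nt, while the 6 with a value had a median of 217 nt. For H/ACA box genes these medians were 134 and 204 nt, and for SCARNA genes 131 and 330 nt. The same held outside the family: 0 of 1801 microRNA symbols and 0 of 107 other genes of at most 150 nt had a value, against 2 of 7 and 21 of 75 above 150 and up to 500 nt. The annotation behind the values is not given in the sources used here, and GENCODE 29 lists SNORA58 at 137 nt and SCARNA17 at 144 nt, where RefSeq has 236 and 421 nt.

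The genes at 0 included RNAs that are known to be abundant, and a listed 0 can be a failed estimate. SNORD118 (U8) and SNORD13, which act in ribosomal RNA processing, and SNORD14A to SNORD14E were listed at 0. So were all 9 SNORD113, 31 SNORD114, 43 SNORD115 and 26 SNORD116 genes of the imprinted clusters, and all 6 snoRNA genes inside SNHG1, 8 inside TAF1D, 4 inside RPL7A, 3 inside HSPA8 and 3 inside NCL. Of 348 genes at 0 that could be placed, 261 lie in a gene on the same strand, and in 256 of the 261 that gene had a mean of at least 0.5 FPKM. EIF4A2, which encodes a translation initiation factor, shows both outcomes, with SNORA81 (177 nt) above 0 and its other 3 snoRNAs at 0.

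Among the genes with a value, levels spanned 5.73 to 284621 FPKM. SNORD3A alone made up 53.2, 57.9, 5.97 and 55.7% of the FPKM sum of untreated replicates 1 to 4 and none of it with IFN-γ. These are shares of summed FPKM and cannot be read as shares of fragments or of RNA. The median FPKM of all genes tested was 8.97, 8.96, 8.93 and 8.98 in the same untreated libraries. The other 25 genes together held 1.90 to 2.22% of the remaining sum in the untreated and 2.03 to 3.03% in the IFN-γ libraries, with the highest share in IFN-γ replicate 4. After SNORD3A, the highest means were those of SNORA73A (3488 FPKM), SCARNA10 (2347 FPKM), SNORD3B-1 (1364 FPKM) and SCARNA12 (1248 FPKM). Between 22 and 25 of the 26 genes were above 0 in any 1 library.

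The groups were compared with limma on log2(FPKM + 0.1), two-sided, with Benjamini-Hochberg adjustment over the 13598 genes whose mean reached 0.5 FPKM and a threshold of 0.05. Over all genes tested, 1809 were higher (13.3%) and 1230 lower (9.05%) with IFN-γ, 22.3% in all. That split turned with the scaling: 1470 were higher and 2564 lower after quantile normalization, 9446 and 19 in TPM (FPKM rescaled to the same sum in every library), and 1139 and 1755 in TPM after the short RNA genes were left out of its sum. 3 of the 26 snoRNA and scaRNA genes passed, SCARNA9 and SNORD3C higher and SNORD3A lower. An unadjusted p under 0.05 was found for 4 of the 26, against 4701 of the 13598 genes tested. Both counts are below the background share, and the median change of the 26 was 0.19 (log2), against -0.0047 for all genes. SNORD3A and SNORA62 entered only through the untreated group, so the direction of their difference is not independent of the selection. Of the 24 genes that reached 0.5 FPKM in each group, 2 passed, against 21.3% of all genes under that filter.

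By class, 1 C/D box gene was higher and 1 lower of 6, 0 of 9 H/ACA box genes passed, and 1 of 11 SCARNA genes was higher. The lower C/D box gene is SNORD3A, whose direction is not independent of the selection. The H/ACA count at an unadjusted p under 0.05 was also 0, against 4701 of 13598 over all genes. Robust limma and limma without a trend called 0 H/ACA box genes. The median change was 1.32 for C/D box genes, which rests on the U3 copies, -0.17 for H/ACA box genes and 0.22 for SCARNA genes. Without untreated replicate 3 the C/D box median was 0.60, and without IFN-γ replicate 4 the H/ACA box median was -0.28 and the SCARNA median 0.04, with 8 of 11 SCARNA changes above 0. Without the 5 U3 copies, 1 of 21 genes was called and the median change was 0.14. A difference between the classes was not tested. In bulk RNA, a smaller part of the cells with an RNA and less of it per cell cannot be told apart.

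**Figure D2:**
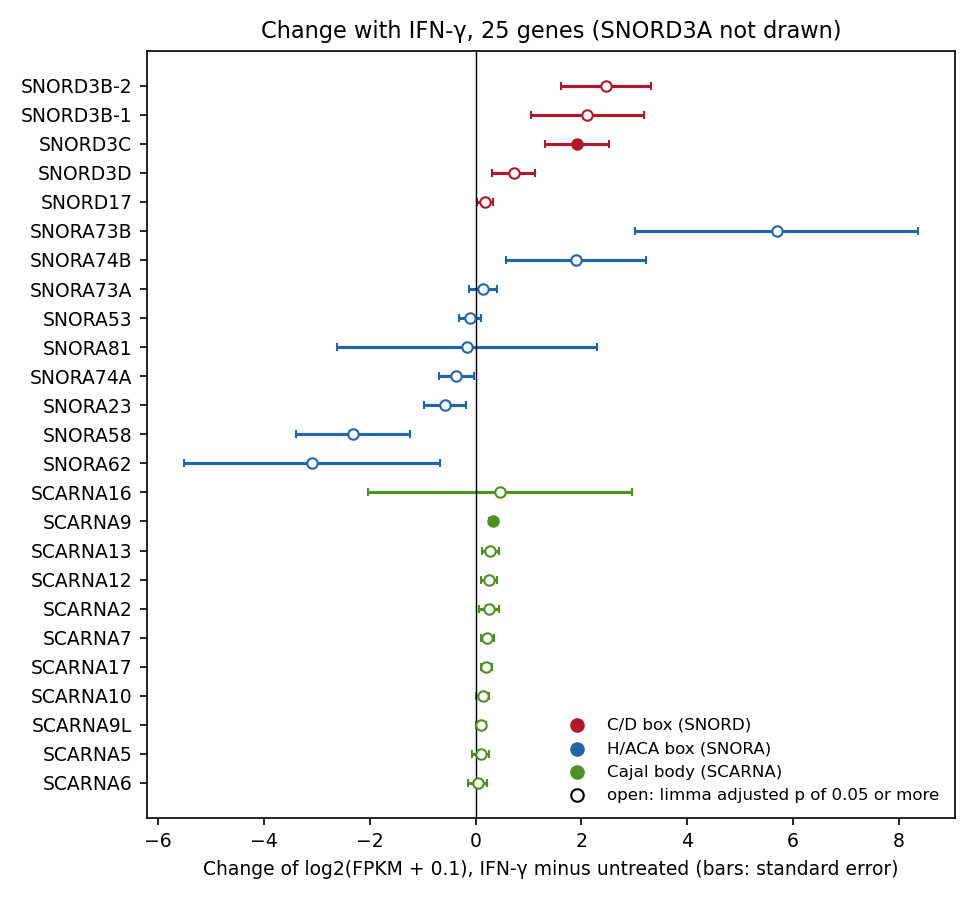
Points are the log2 change of FPKM + 0.1, IFN-γ minus untreated, of 25 genes (y axis) with bars of 1 standard error from limma, coloured by class. Filled points passed an adjusted p of 0.05. SCARNA9 and SNORD3C are filled and the SCARNA changes lie between 0.04 and 0.46. The widest bars are those of SNORA73B, SCARNA16, SNORA81 and SNORA62, genes with libraries at 0.

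Of the 5 U3 copies, SNORD3A was listed at 0 with IFN-γ and SNORD3C rose. SNORD3A stood at 668784, 829316, 37842 and 741029 FPKM in untreated replicates 1 to 4 and was listed at 0 in all 4 IFN-γ libraries. The groups do not overlap, which holds for 28.2% of all genes in either direction and for 12.9% with IFN-γ lower. The untreated values themselves span from 37842 in replicate 3 to 829316 in replicate 2. SNORD3A entered the gene set only through its untreated values, so this contrast is given as a description, with no p-value, and no fold is given against a group at 0. The other U3 copies had values in the libraries where SNORD3A was at 0. As for the short genes, a listed 0 can be a failed estimate, and whether that holds for SNORD3A was not tested.

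SNORD3B-1 read 939, 1026, 29.1 and 820.0 FPKM untreated and 2108, 585, 1862 and 3544 FPKM with IFN-γ. 3 of its 4 IFN-γ values lie above all untreated values, while IFN-γ replicate 2 lies among them, and the log2 change of 2.12 (SE 1.07) had an adjusted p of 0.193. That change rested on untreated replicate 3, at 29.1 FPKM, and was 0.87 (adjusted p = 0.283) without it. SNORD3B-2, with the same sequence, read 6.85, 63.2, 7.28 and 58.8 FPKM untreated and 102, 45.6, 384 and 100.1 FPKM with IFN-γ. Its change of 2.47 (SE 0.86) had an adjusted p of 0.0665 (0.0421 and 0.0482 without untreated replicate 2 or 4), and its level was far below that of SNORD3B-1 in every library. SNORD3C, 1 base from SNORD3A, read 17.1, 69.0, 29.1 and 84.6 FPKM untreated and 136, 62.2, 402 and 179 FPKM with IFN-γ. It rose by 1.92 (SE 0.60, adjusted p = 0.0459), from 49.9 ± 32.0 to 195 ± 146 FPKM (SD, n = 4 each), and the groups overlap through IFN-γ replicate 2. The call of SNORD3C was lost in 11 of 21, among them those without untreated replicate 1, 2 or 3 (adjusted p = 0.122, 0.0522 and 0.114) and without IFN-γ replicate 1, 3 or 4 (0.0759, 0.105 and 0.0713), and the highest adjusted p was 0.144. SNORD3D, 3 bases from SNORD3A, read 24.0, 17.2, 7.28 and 25.7 FPKM untreated and 37.15, 33.2, 14.4 and 32.5 FPKM with IFN-γ, a change of 0.72 (SE 0.41, adjusted p = 0.247), and of 0.32 (adjusted p = 0.529) without untreated replicate 3.

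**Figure D3:**
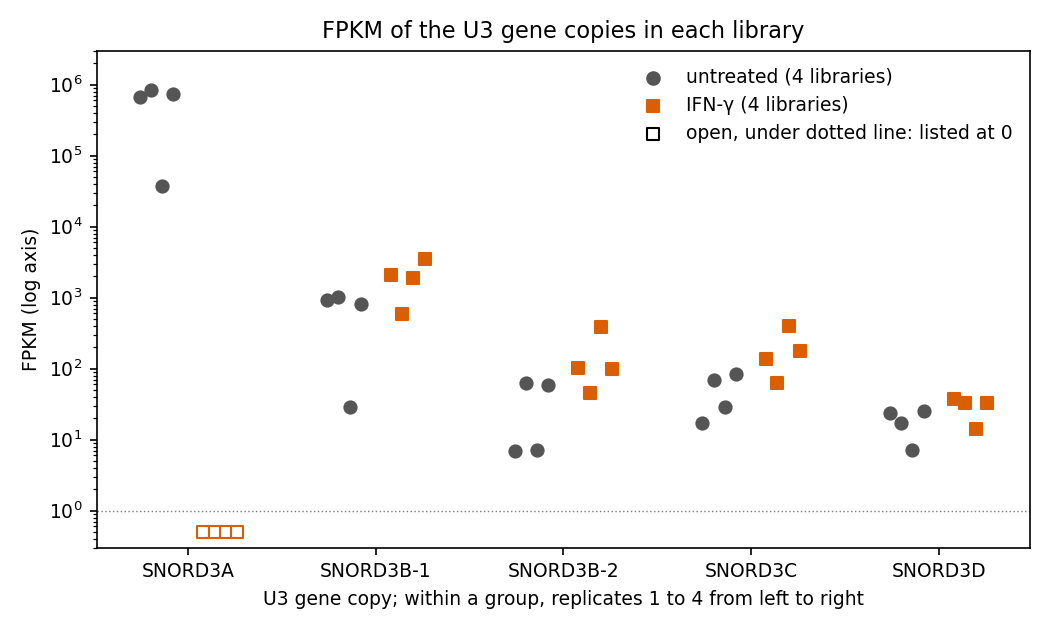
FPKM on a log axis of the 5 U3 copies in each library, with untreated libraries as grey circles and IFN-γ libraries as orange squares, replicates 1 to 4 from left to right within a group. Open squares under the dotted line are SNORD3A in the 4 IFN-γ libraries, listed at 0. Untreated replicate 3 is the lowest untreated library of SNORD3A, SNORD3B-1 and SNORD3D.

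Untreated replicate 3 was the low untreated library for the summed U3 level. It had the lowest untreated value of SNORD3A, SNORD3B-1 and SNORD3D, and its summed U3 level was 37914 FPKM, against 669771, 830492 and 742018 in replicates 1, 2 and 4. SNORD3B-2 and SNORD3C were lowest in untreated replicate 1, at 6.85 and 17.1 FPKM. In untreated replicate 3 SNORD3B-2 and SNORD3D had the same value, 7.28 FPKM, and SNORD3B-1 and SNORD3C the same value, 29.1 FPKM. Equal values of genes of equal length can come from a few counted fragments, so these values may have a low precision. The 4 copies other than SNORD3A summed to 987, 1176, 72.8 and 989 FPKM untreated and to 2384, 726, 2662 and 3855 FPKM with IFN-γ, so that the groups overlap. The SCARNA genes did not share the low values: their median difference from the other 3 untreated libraries was 0.02 (log2) in replicate 3, against -1.79 for the C/D box and -0.65 for the H/ACA box genes.

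SNORD17, whose RNA is a guide on large subunit ribosomal RNA, showed no call. It read 725, 899, 896 and 762 FPKM untreated and 831, 808, 826 and 1303 FPKM with IFN-γ. The first 3 IFN-γ libraries lie inside the untreated range and only IFN-γ replicate 4 lies above it. The log2 change was 0.18 (SE 0.15, adjusted p = 0.462) with all libraries and 0.0093 without that library. Its host SNX5, a sorting nexin gene, was at 34.9 ± 0.509 and 34.7 ± 1.10 FPKM.

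SCARNA9, which guides modification of the spliceosomal RNA U2, was the scaRNA that rose. It read 313, 332, 327 and 323 FPKM untreated and 388, 453, 393 and 388 FPKM with IFN-γ. All 4 IFN-γ values lie above all untreated values, and IFN-γ replicate 2 is the highest, whereas IFN-γ replicate 4, high for many genes here, is not raised. The group means were 324 ± 7.89 and 405 ± 31.6 FPKM, a change of 0.32 (SE 0.06, adjusted p = 0.00302). A rise without overlap was seen in 15.4% of all genes tested. The call held in 20 of 21 alternatives (adjusted p = 8.2e-04 to 0.0926) and missed the threshold only with quantile normalization, where the change was 0.24. CEP295, the centrosomal protein gene that holds SCARNA9, rose by 0.19 (SE 0.05, adjusted p = 0.0215), from 11.98 ± 0.379 to 13.7 ± 0.723 FPKM. CEP295 missed the threshold when replicate 1, 3 or 4 of the untreated or replicate 1 or 2 of the IFN-γ libraries was left out, with adjusted p from 0.0589 to 0.0639, and its highest adjusted p was 0.414, in TPM without the short RNA genes. The difference between the changes of SCARNA9 and CEP295 was not tested. SCARNA9L, a gene related by name, read 183, 223, 213 and 218 FPKM untreated and 214, 240, 191 and 251 FPKM with IFN-γ, with a change of 0.10 (SE 0.09, adjusted p = 0.499).

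The other 9 SCARNA genes had changes that missed the threshold. SCARNA10, a guide on U5 with both kinds of domain and the scaRNA with the highest mean FPKM here, read 2072, 2193, 2429 and 2222 FPKM untreated and 2192, 2393, 2217 and 3056 FPKM with IFN-γ (change 0.13, SE 0.12, adjusted p = 0.494). SCARNA2, transcribed from its own promoter, read 730.5, 801, 719 and 718 FPKM untreated and 714, 728, 834 and 1399 FPKM with IFN-γ (0.25, SE 0.19, adjusted p = 0.380). SCARNA12, inside PHB2, read 1152, 1165, 1059.6 and 1107 FPKM untreated and 1201, 1133, 1247 and 1922 FPKM with IFN-γ (0.26, SE 0.15, adjusted p = 0.252). In each of these 3 the highest value by far was IFN-γ replicate 4, and the other IFN-γ libraries lay in or near the untreated range. SCARNA5 and SCARNA6, both inside ATG16L1 and 63.5% identical, read 764 to 954 and 220.3 to 281.5 FPKM untreated, and 787, 793, 801 and 1293 FPKM and 195, 219, 253 and 383 FPKM with IFN-γ. SCARNA7, inside KPNA4, ran from 572 to 678 FPKM untreated and read 642, 709, 714 and 986 FPKM with IFN-γ, and SCARNA13, a double H/ACA scaRNA inside SNHG10, ran from 415 to 510 FPKM and read 477, 477, 536 and 809 FPKM. For these 4 the adjusted p lay between 0.236 and 0.903. GLRX5 on the opposite strand overlaps SCARNA13, which the library kit does not separate. SCARNA17 read 82.4, 75.8, 80.4 and 58.9 FPKM untreated and 76.5, 94.6, 81.4 and 88.9 FPKM with IFN-γ (0.21, SE 0.11, adjusted p = 0.2005), and SCARNA16 was at 0 in replicate 3 of each group, with 20.7 to 61.4 FPKM in the other untreated and 37.8 to 144 FPKM in the other IFN-γ libraries. Without IFN-γ replicate 4 the changes were 0.03 for SCARNA10 and SCARNA2, 0.04 for SCARNA9L, 0.09 for SCARNA12 and SCARNA7 and 0.10 for SCARNA13, all not called. In the same setting those of SCARNA5, SCARNA6 and SCARNA16 were -0.08, -0.16 and -0.74, and with quantile normalization those of SCARNA6 and SCARNA9L were -0.11 and -0.06.

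**Figure D4:**
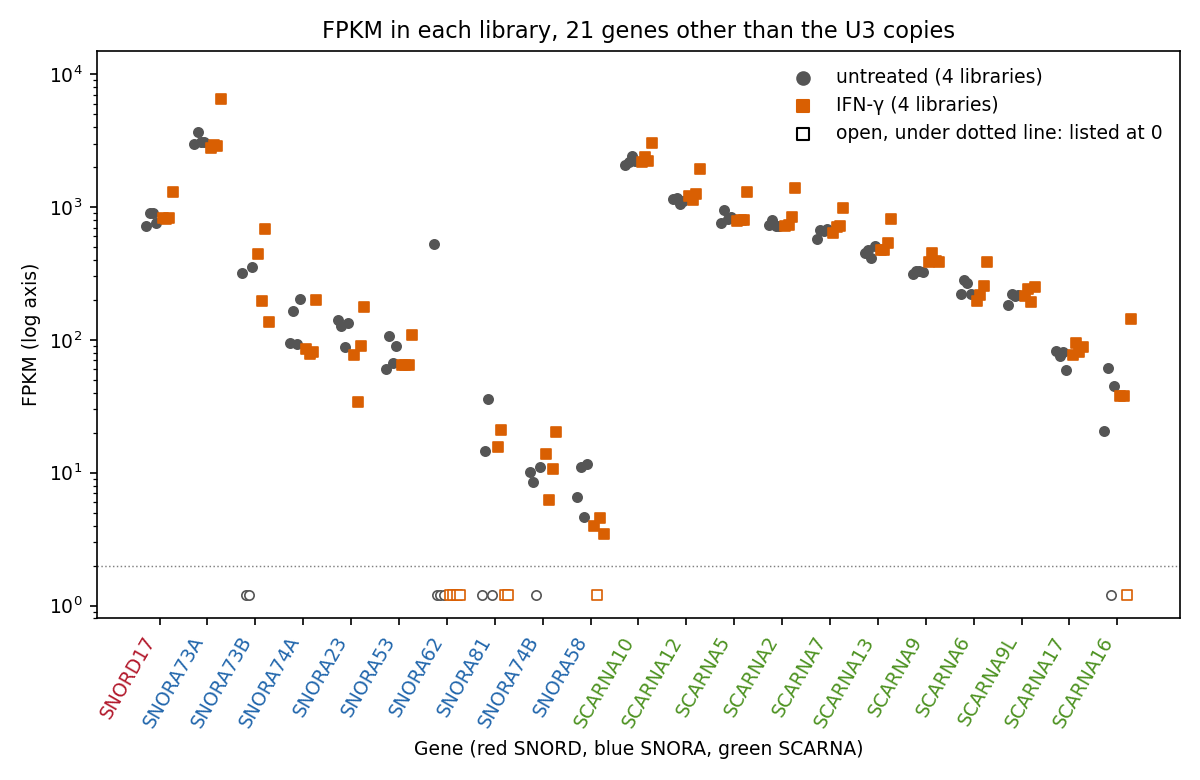
FPKM on a log axis of the 21 genes other than the U3 copies in each library, ordered by class and mean, with untreated libraries as grey circles and IFN-γ libraries as orange squares. Open symbols under the dotted line are listed at 0. The last square, IFN-γ replicate 4, stands above the other libraries for SNORA73A, SCARNA2 and SCARNA12, and not for SCARNA9.

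Among H/ACA box genes, SNORA73A had the highest mean FPKM and SNORA73B, 93.2% identical to it over 206 aligned positions, was read in steps. SNORA73A stood at 2970.1, 3663, 3086 and 3085 FPKM untreated and 2776, 2947, 2855 and 6519 FPKM with IFN-γ, so that 3 IFN-γ libraries lay below all untreated ones and the fourth above. Its change was 0.14 (SE 0.26, adjusted p = 0.746), and -0.16 (adjusted p = 0.108) without IFN-γ replicate 4. SNORA73B stood at 321, 0, 0 and 354 FPKM untreated and 443, 196, 684 and 136 FPKM with IFN-γ. Scaled for relative depth, its 6 values above 0 were close to 1 to 4 times the lowest, with a largest distance from a whole multiple of 0.105. SNORA81 and SNORA74B behaved alike: 4 of 4 values of SNORA81 were within 0.1 of 1 or 2 steps, and 6 of 7 values of SNORA74B were within 0.1 of a whole multiple between 1 and 3. These counts include the lowest value of each gene, which sets the step. Whole multiples of a lowest value are a pattern that a few counted fragments can give. However, in IFN-γ replicate 2 the lowest value was 196 FPKM for SNORA73B (205 nt) and 6.19 FPKM for SNORA74B (204 nt). How many fragments a step holds is therefore not known, and the precision of these values is uncertain.

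SNORA23, inside IPO7, read 141, 127, 88.2 and 133 FPKM untreated and 77.1, 34.3, 89.3 and 177 FPKM with IFN-γ. Its change was -0.58 (SE 0.40, adjusted p = 0.339), and leaving out IFN-γ replicate 4 made it a fall that passed (-0.96, adjusted p = 0.0403). SNORA74A, inside MATR3 and SNHG4, read 94.4, 164, 93.3 and 204 FPKM untreated and 85.6, 78.7, 80.6 and 199 FPKM with IFN-γ. Its change was -0.36 (SE 0.34, adjusted p = 0.493), with -0.68 (adjusted p = 0.0756) without that library, and SIL1 on the opposite strand overlaps it, which the library kit does not separate. SNORA74B, 67.3% identical to SNORA74A, was at 10.2, 8.58, 0 and 11.01 FPKM untreated and 13.9, 6.19, 10.7 and 20.4 FPKM with IFN-γ. SNORA53, inside SLC25A3, read 60.4, 107, 67.5 and 89.3 FPKM untreated and 65.0, 64.8, 64.7 and 108 FPKM with IFN-γ (change -0.10, SE 0.21, adjusted p = 0.773), with a change of -0.28 without IFN-γ replicate 4.

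SNORA58, inside MRPL3, was the second gene that was lower without overlap, which holds for 12.9% of all genes. It stood at 6.57, 11.01, 4.64 and 11.7 FPKM untreated and 3.95, 0, 4.57 and 3.44 FPKM with IFN-γ, with an adjusted p of 0.158, and was called lower without IFN-γ replicate 2 (-0.98, adjusted p = 0.0461), the library at 0. The lowest untreated value of 4.64 and the highest IFN-γ value of 4.57 FPKM nearly meet. SNORA62 was at 528 FPKM in untreated replicate 1 and listed at 0 in the other 7 libraries, while its host RPSA, which encodes a ribosomal protein, was at 540 ± 8.43 and 572 ± 88.6 FPKM. SNORA81 was at 0, 14.6, 35.9 and 0 FPKM untreated and 15.7, 20.99, 0 and 0 FPKM with IFN-γ, with no call (adjusted p = 0.973).

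IFN-γ replicate 4 stood apart for this gene set. Against the other 3 IFN-γ libraries, its median difference (log2) was 0.70 over the 21 genes without the U3 copies, with 17 of 21 above, and 0.00038 over all genes. By class it was 1.06 for H/ACA box, 0.69 for SCARNA (10 of 11 above) and 0.28 for C/D box genes, and it was 0.024 for 19 host genes. 6 other RNA genes lay higher by a median of 0.76, all 6 above: TERC, RMRP, RPPH1, RN7SK, RNA18S5 and RNA28S5. RNA18S5 and RNA28S5 are ribosomal RNA genes and not short. Their ratios to the mean of the other 3 libraries were 2.07 and 2.45, against 1.41 to 1.78 for the rest. RNA18S5 read 0, 0, 1.63 and 1.12 FPKM in IFN-γ replicates 1 to 4. Its ratio therefore rests on values near 0, and replicate 3 was higher than replicate 4. TERC, the telomerase RNA and itself an H/ACA RNA, read 546, 564, 561 and 529 FPKM untreated and 578, 608, 596 and 842 FPKM with IFN-γ, and RMRP, the RNA of RNase MRP, was 1.78 times the mean of the other 3 in this library. The TERC groups do not overlap. Neither gene was called, and of those 6 genes 0 passed limma's adjusted or unadjusted threshold. Over all 13598 genes, 22.3% passed the adjusted and 4701 genes the unadjusted threshold.

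**Figure D5:**
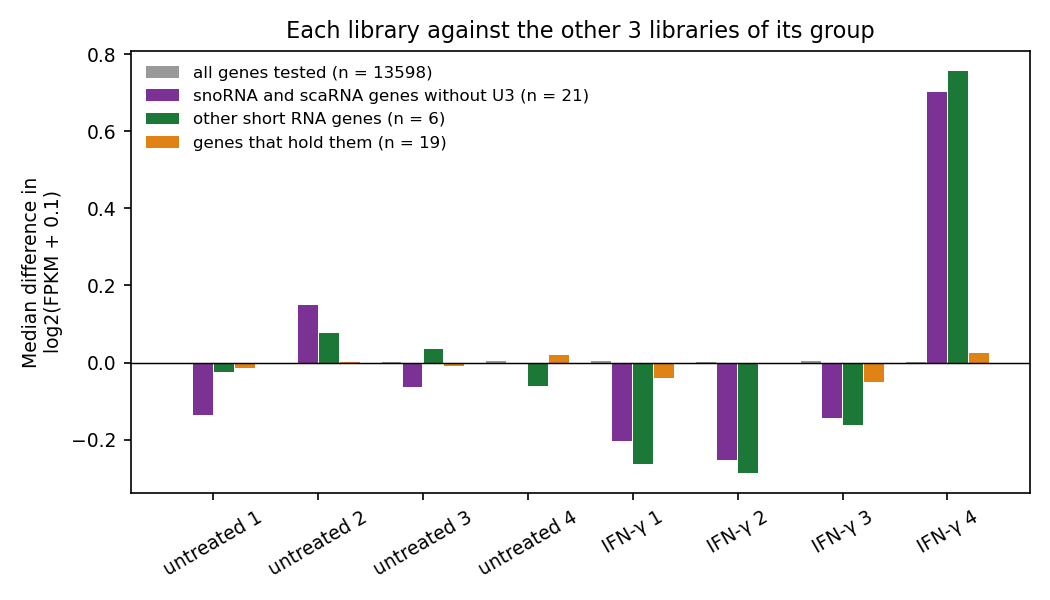
Bars are the median difference in log2(FPKM + 0.1) of each library from the mean of the other 3 of its group, for all genes tested, the 21 snoRNA and scaRNA genes without U3, 6 genes drawn as other short RNA genes and 19 host genes. The 6 genes include the ribosomal RNA genes RNA18S5 and RNA28S5, which are not short. IFN-γ replicate 4 stands at 0.70 for the 21 genes and 0.76 for these 6 genes, and near 0 for host genes.

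The difference of this library followed transcript length beyond the gene set. Length here is that of the longest GENCODE transcript of a gene. Among other genes, the median difference of IFN-γ replicate 4 from the other 3 IFN-γ libraries was 0.39 for 55 genes of at most 400 nt, 0.24 for 93 genes up to 600 nt, 0.25 for 392 up to 1000 nt, 0.21 for 1839 up to 2000 nt, 0.054 for 4796 up to 4000 nt and -0.087 for 5542 longer ones. Within the gene set the ratio of this library to the mean of the other 3 was 2.28 for SNORA73A, 2.64 for SNORA23, 2.43 for SNORA74A, 1.84 for SCARNA2 and 1.58 for SNORD17, but 0.944 for SCARNA9 and 1.06 for SCARNA17. Without it, the median change of the 26 genes with IFN-γ was 0.036, and SCARNA9 was called higher and SNORA23 and SNORD3A lower. The direction of SNORD3A is not independent of the selection. The part of length in the other results was not tested.

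Of 19 genes tested that hold these RNAs, 2 rose and 3 fell, against a background of 13.3% higher and 9.05% lower, and their median change was 0.017. Besides CEP295, ATG16L1, an autophagy gene that holds SCARNA5 and SCARNA6, rose by 0.16 (adjusted p = 0.0437). NCAPD2, a condensin gene that holds SCARNA10, fell by 0.15 (adjusted p = 0.00781) from 39.5 ± 0.560 to 35.7 ± 0.422 FPKM, the importin gene IPO7 fell by 0.14 (adjusted p = 0.0104), and RCC1, which encodes the exchange factor of Ran, fell by 0.18 (adjusted p = 0.0175). SNORA73A and SCARNA10 were not called while RCC1 and NCAPD2 fell; the difference between an RNA and its host was not tested. SNHG22, which holds SCARNA17, was listed at 0. The count of 5 host genes fell to 2 without untreated replicate 3 or 4 and to 3 without IFN-γ replicate 1 or 2.

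The proteins that bind and build these RNAs were read from the same fit. NOP56, a C/D box core protein, rose by 0.23 (adjusted p = 0.00681), from 109 ± 2.66 to 128 ± 7.99 FPKM, and was the 1 of 5 core C/D box genes that passed. FBL, the methyltransferase, was at 140 ± 1.08 and 153 ± 9.97 FPKM (adjusted p = 0.0925) and NOP58 at 60.9 ± 2.13 and 62.2 ± 1.97 FPKM (adjusted p = 0.629). RRP9, which binds U3, had a change of -0.23 (adjusted p = 0.0553). None of the 4 H/ACA core genes passed limma's adjusted threshold, and 0 had an unadjusted p under 0.05, against 4701 of 13598 over all genes. DKC1, the pseudouridine synthase, was at 63.2 ± 0.741 and 61.4 ± 2.15 FPKM, GAR1 at 36.2 and 36.1 FPKM, NHP2 at 132 and 135 FPKM and NOP10 at 187 ± 4.05 and 216 ± 36.4 FPKM.

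Of 15 assembly factors, 2 rose, C12orf45 (0.33, adjusted p = 0.00654) and the export receptor XPO1 (0.12, adjusted p = 0.0294), and none fell. Of 11 genes of Cajal bodies, 0 passed limma's threshold and 1 had an unadjusted p under 0.05: COIL, which encodes coilin, was at 18.9 ± 0.497 and 19.4 ± 0.916 FPKM, and WRAP53, which brings scaRNAs to Cajal bodies, was at 4.94 ± 0.0379 and 4.26 ± 0.484 FPKM (adjusted p = 0.0962). Of 23 processing and decay enzymes, 3 rose and 1 fell: RBM7 (0.46) and EXOSC4 (0.30), which work with or in the exosome, and the lariat debranching enzyme DBR1 (0.22) were higher, and the exonuclease XRN2 was lower (-0.15). Of 26 proteins of the U3 processome, which cleaves the ribosomal RNA precursor, 1 rose, RCL1 (0.31, adjusted p = 0.00265), and 4 fell, among them NOP14 (-0.18, adjusted p = 0.0106) and UTP20 (-0.18, adjusted p = 0.0350). Of 15 genes of RNA polymerase I and its factors, TAF1B was higher and POLR1E lower. The background over all genes was 13.3% higher and 9.05% lower, with an unadjusted p under 0.05 for 4701 of 13598. No count of these lists was tested against it.

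Of 28 genes tested from a list of long non-coding host genes, 3 rose and 3 fell, a share near the 22.3% of all genes called. That list also holds the protein-coding genes TAF1D, CWC15 and SNURF, none of them called. MEG3, which neighbours the SNORD113 and SNORD114 clusters, rose by 0.78 (adjusted p = 4.9e-06), from 30.1 ± 0.999 to 51.9 ± 4.18 FPKM, and MEG8, which holds SNORD113 and SNORD114 RNAs, rose by 1.38 (adjusted p = 0.00764), from 2.64 ± 1.01 to 6.65 ± 1.58 FPKM. SNHG24 rose by 0.75 (adjusted p = 0.00152), DANCR fell by 0.51 (adjusted p = 0.00202) and SNHG7 fell by 0.31 (adjusted p = 0.0275). GAS5, a host of many short C/D box RNAs, was at 316 ± 16.4 and 281 ± 42.5 FPKM (adjusted p = 0.195). The snoRNAs of the SNORD113 and SNORD114 clusters were among those listed at 0, so the rise of MEG3 and MEG8 has no snoRNA value beside it. Of 68 genes from a list of protein-coding hosts, which also holds TAF1D, 3 rose and 3 fell, below the 22.3% of all genes. TNPO2 had the largest fall (-0.19, adjusted p = 0.0159) and NOP56 the largest rise.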

How the data were processed

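RNA-seq values of 8 libraries, 4 untreated and 4 with IFN-γ, were used as deposited: the authors' table gives FPKM per gene symbol, 1 column per library, with 0 further value columns. The aligner TopHat2, the build hg38 and Cuffdiff for the FPKM values are named, per the submitters' processing notes; their versions and options and the annotation are not given here. Without counts, precision cannot be read from depth directly, and relative depth was taken from the step sizes of low values. Values were taken as log2(FPKM + 0.1) without further scaling, and all genes that averaged 0.5 FPKM or more were fitted together with limma 3.58.1 in R 4.3.3 with a mean-variance trend; the fit was tested on simulated data. Replicate numbers come from the sample titles and served as a block only in an alternative. The genes and lists were chosen with earlier results of these data known.

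Named were all 26 genes of the set, their host genes, a few core proteins and GAS5, and up to 4 called genes per list with the largest change; SNORD118, SNORD13 and SNORD14A to SNORD14E were named whatever their value, and the imprinted SNORD families, RMRP, TERC, RRP9 and the marker genes were chosen after their values were seen. Lengths came from RefSeq (392 of 400 symbols matched), and positions, hosts and sequences from GENCODE release 29 on GRCh38, where SCARNA9L was not matched. Of several transcripts of a gene the shortest was taken for the sequences, their positions and the motifs. The length trend of IFN-γ replicate 4 used the longest GENCODE transcript of each gene. Motifs were searched on the transcribed strand only. The value of 1 marker gene is not reported here. Alternatives were pseudocounts of 1 and 0.01, other filters, median-of-ratios and quantile scaling, TPM with and without short RNA genes, robust limma and limma without a trend, the block, and each library left out.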

Additional observations from a re-analysis of the deposited data

Results flagged for a closer look

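In 11 cases 1 library of a group of 4 stood so far from the others that its gap to the nearest of them, as a share of the group's range, was above Dixon's 95% critical value. Chance gives this in about 1 in 20 groups. 6 of the 11 were IFN-γ replicate 4: SCARNA12 at 1922 FPKM, SCARNA5 at 1293 FPKM, SNORA53 at 108 FPKM, SNORA73A at 6519 FPKM, SNORA74A at 199 FPKM and SNORD17 at 1303 FPKM, each the highest of its group. IFN-γ replicate 2 was highest for SCARNA9 at 453 FPKM, and IFN-γ replicate 3 for SNORD3B-2 at 384 FPKM. In the untreated group, replicate 2 was highest for SCARNA2 at 801 FPKM and for SNORA73A at 3663 FPKM, and replicate 1 for SNORA62 at 528 FPKM, where the other 3 libraries were listed at 0. The part of these libraries in the other results was not tested beyond the values without them.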

How the results depend on the processing

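Of the counts of called genes, those over all genes and over the 26 genes changed by more than 1.5 times in TPM alone among the settings that keep all libraries. In TPM the all-gene median shifted by 0.79 (log2), and the calls were 9465 of all genes, against 3039, 23 of the 26 genes, against 3, 6 C/D box, 6 H/ACA box and 11 SCARNA genes, and 16 host genes, against 5. There SNORA53 was called higher at 0.70, against -0.10 otherwise, with the shift of all genes in it. The C/D box count of 2 became 1 without a filter, with a filter of 0.5 FPKM in each group (where SNORD3A was not tested), with robust limma and with limma without a trend. Quantile normalization called 0 SCARNA genes, against 1, and 8 host genes. Leaving out each library in turn gave 2328 to 3863 calls over all genes, 2 to 4 of the 26, 1 to 3 C/D box, 0 to 1 H/ACA box, 1 SCARNA gene each time and 2 to 6 host genes. The fitted difference of SNORD3A, at 0 in a whole group, is set by the pseudocount and is not given. The counts include SNORD3A wherever it was tested, and the direction of its call is not independent of the selection. With untreated replicate 3 and IFN-γ replicate 4 both left out, an alternative chosen after seeing the data, 1 C/D box gene, SNORD3A, and 2 H/ACA box genes, SNORA23 (-1.11, adjusted p = 0.0305) and SNORA74A (-0.85, adjusted p = 0.0324), were called lower.

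Same-numbered libraries shared only a number: the correlations of their deviations from the group means were -0.027, 0.079, 0.061 and 0.061, and not every library correlated best with its own number. With the replicate number as a block, 1639 genes were higher and 1017 lower, and 3 of the 26 were called: SCARNA9 (0.32, adjusted p = 0.00716) and SNORD3D (0.72, adjusted p = 0.00308) higher and SNORD3A lower, while SNORD3C had an adjusted p of 0.0586, and 4 host genes were called. In that fit, 2 C/D box, 0 H/ACA box and 1 SCARNA genes passed, with SNORD3A, subject to the same limit of selection, among the C/D box genes. Without counts the number of fragments behind a value is not known. The steps seen in SNORA73B, SNORA74B and SNORA81, and the equal values of U3 copies in untreated replicate 3, limit what can be read from these genes.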
